A study of Mus musculus with 6 samples.

Results

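The genes described here encode proteins that turn neuropeptide precursors into active peptides and pack them into dense-core granules. They were taken by symbol from a list of 10, Pcsk1, Pcsk2, Pcsk1n, Cpe, Pam, Scg2, Scg3, Scg5, Chga and Chgb, out of the 32531 gene features that each count file lists. All 10 were found, and all 10 were among the 16991 features that passed the filter on low counts. The libraries came from the hypothalamus of adult, untreated control mice of the line Lhx5-TRAP DT154, which carries Lhx5-EGFP-Rpl10a. In translating ribosome affinity purification, an EGFP-tagged ribosomal protein L10a is made in the cells in which the driver gene is active, here Lhx5, and anti-EGFP antibodies on beads pull down the tagged polysomes. Of the 6 libraries, 3 held immunopurified RNA (IP) and 3 held RNA whose sample type is unbound and whose titles say input. All 6 come from this 1 transgenic line. No label says whether the replicates came from separate animals or pools, so p-values measure only the spread between these libraries.

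Prohormones enter the secretory pathway through the endoplasmic reticulum and are sorted into granules that bud from the trans-Golgi network. There the prohormone convertases cut after pairs of basic residues, carboxypeptidase E trims the basic residues that remain at the new C-terminus, and peptidylglycine alpha-amidating monooxygenase turns a C-terminal glycine into an amide. Granins are acidic, calcium-binding proteins that aggregate with the cargo and help form the granule. Hypothalamic neurons that release peptides such as thyrotropin-releasing hormone, vasopressin and oxytocin rely on this machinery.

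The libraries held between 32471045 and 46293837 gene counts, and levels are given as CPM, each gene's counts relative to a library size scaled by TMM (the trimmed mean of M-values). The library unbound replicate 3 stood apart: the 16 listed hypothalamic marker genes summed to 22.05 CPM there, against 201 and 121 CPM in unbound replicates 1 and 2 and 329.6 to 379 CPM in the IP libraries. In IP replicate 3 the 10 granule genes summed to 1601 CPM, against 2969 and 2617 CPM in the other IP libraries and 1346 to 1762 CPM in unbound RNA. Results are therefore also given without the third pair of libraries. As the level of the 10 genes was itself a ground for this choice, leaving out IP replicate 3 raises their fold changes by construction. Values without that library are a description and no further support.

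Promoters of granin and convertase genes are known for cyclic AMP response elements (CRE), the palindrome bound by CREB. The RefSeq promoter windows of build GRCm38.p6, which run from 250 bases before the annotated start to 50 after it, were searched on both strands for TGACGTCA. Windows were found for 9 of the 10 genes. The full element was present in 3 of the 9, Pcsk1, Scg2 and Chgb, and in 1.79% of the 32851 windows of all genes. It is shown here because Pcsk1 and Scg2 were among the genes that rose in IP and Chgb was not, with the element in capitals and 11 bases on each side, in the direction of the gene.
Pcsk1, chr13:75089768-75089797, plus strand: ccaggtagatcTGACGTCAagagatggctt
Scg2, chr1:79440076-79440105, minus strand: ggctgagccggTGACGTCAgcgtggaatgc
Chgb, chr2:132781559-132781588, plus strand: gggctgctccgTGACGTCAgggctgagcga
Measured to the RefSeq start, the first base of the element lay 78 bases before it in Pcsk1, 68 in Scg2 and 72 in Chgb. The GENCODE gene bounds given further on differ: the element lies outside the gene in Pcsk1 and inside it in Scg2 and Chgb. The shorter letters TGACG, which the full element contains on both strands, were in 7 of the 9 genes and in 20.8% of all windows. In Chga they lay 44 bases before the RefSeq start, shown with 12 bases on each side because the letters that follow differ from the palindrome.
Chga, chr12:102554885-102554913, plus strand: ggggcggtcctaTGACGtaatttcctggg
These matches describe letters in the reference and not binding.

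Of the 10 genes, 5 were higher in IP than in unbound RNA and 0 were lower: Pcsk1, Scg2, Pam, Pcsk1n and Scg5, by 1.53 to 0.92 on the log2 scale. The rule for a call was an adjusted p under 0.05 in the quasi-likelihood test of edgeR, adjusted by the Benjamini-Hochberg method over all genes tested. By the same rule 21.1% of all genes tested were higher and 23.2% lower. Scaling on pan-neuronal markers, described further on, left 1 higher and 1 lower (3.64% and 47.0% of all genes). The median log2 fold change of the 10 was 0.77, against -0.01 for all genes tested. Of the 5, 4 (all but Scg5) were at least 2-fold higher, as were 5.97% of all genes tested. For the 5 genes the lowest IP level exceeded the highest unbound level, which held for 27.1% of all genes tested. For the other 5 (Pcsk2, Cpe, Scg3, Chga and Chgb) the groups overlapped. Fewer cells of a type and less RNA per cell cannot be told apart in these bulk libraries.

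**Figure D1:**
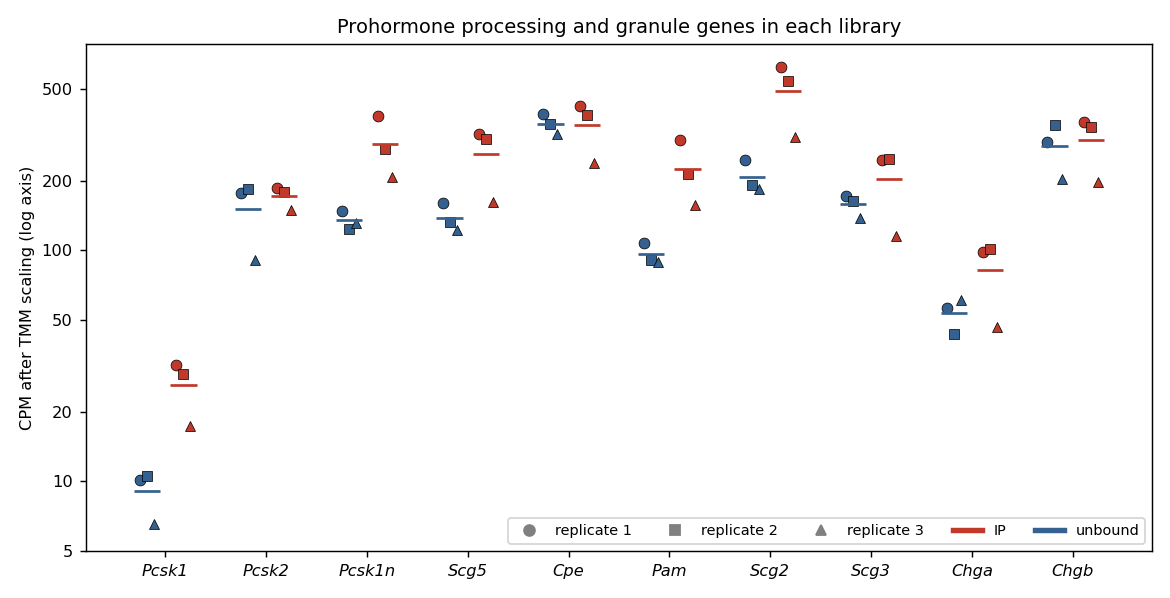
Level of each of the 10 genes in each library, in CPM after TMM scaling on a log axis; red points are IP and blue points unbound libraries, the shape gives the replicate and the bar the group mean. The IP points lie above all unbound points for Pcsk1, Pcsk1n, Scg5, Pam and Scg2, and IP replicate 3 (triangle) is the lowest IP point for all 10 genes.

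Of the convertases, Pcsk1 rose and Pcsk2 did not pass. Pcsk1 encodes prohormone convertase 1/3, the enzyme that makes the first cuts in many precursors. It stood at 31.8, 29.3 and 17.4 CPM in IP replicates 1 to 3, and at 10.1, 10.6 and 6.55 CPM in unbound replicates 1 to 3. All IP libraries were well above all unbound ones, and replicate 3 was the lowest on each side. IP over unbound gave 1.53 ± 0.28 in log2 (SE, n = 3 each, adjusted p = 0.00262, edgeR), with a 95% interval from 0.90 to 2.15, the largest rise among the 10 genes. Pcsk2, which encodes convertase 2, the enzyme that cuts further to release smaller peptides, had IP levels of 186, 179 and 149.8 CPM and unbound levels of 177, 184 and 90.7 CPM. Only unbound replicate 3 was low. IP over unbound gave 0.19 ± 0.25 in log2 (SE, adjusted p = 0.572, edgeR), with a 95% interval from -0.39 to 0.76. Without the third pair it was -0.003, and without unbound replicate 3 alone it was -0.08. GENCODE annotates a pair of antisense genes, Pcsk2os1 and Pcsk2os2, that share 359 exonic bases with Pcsk2, and the strand setting of the counting is not given in the sources used here.

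Within a library, the ratio of counts between a pair of genes does not depend on how libraries are scaled. The pairs were chosen after the counts had been seen, so their ratios are given without a test. Pcsk1 counts were 0.171, 0.163 and 0.116 of Pcsk2 counts in the IP libraries, and 0.0572, 0.0574 and 0.0722 in the unbound ones. The groups did not overlap, and the geometric mean ratio was 2.39-fold higher in IP.

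Each convertase has a small partner protein in the granule, and both partners rose. Pcsk1n encodes proSAAS, an inhibitor of convertase 1/3. Its levels were 383, 274 and 207 CPM in IP, against 149, 124 and 131 CPM in unbound RNA. The lowest IP library was above the highest unbound one, and IP over unbound gave 1.10 ± 0.22 in log2 (SE, adjusted p = 0.00393, edgeR). Scg5 encodes 7B2, the chaperone that convertase 2 needs to become active. Its IP levels were 319, 303 and 163 CPM and unbound levels 159.5, 133 and 122 CPM. IP replicate 3 lay just above the highest unbound library, and IP over unbound gave 0.92 ± 0.25 in log2 (SE, adjusted p = 0.0162, edgeR). This call was lost without IP replicate 1, IP replicate 2 or unbound replicate 2 (adjusted p from 0.0531 to 0.0637, edgeR), and the value was 1.07 without the third pair. The ratio of Scg5 to Pcsk2 counts was 1.72, 1.69 and 1.09 in IP and 0.903, 0.719 and 1.34 in unbound libraries, so the groups overlapped through the replicate 3 libraries. For Pcsk1n against Pcsk1 the ratios also overlapped, from 9.38 to 12.03 in IP and from 11.7 to 20.05 in unbound libraries.

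Of the enzymes that finish the peptide, the amidating enzyme rose and the carboxypeptidase gave no difference that passed. Pam IP levels were 302, 213 and 157 CPM and unbound levels 108, 91.1 and 89.4 CPM, with no overlap. IP over unbound gave 1.22 ± 0.23 in log2 (SE, adjusted p = 0.00303, edgeR). Cpe IP levels were 423, 385 and 239 CPM and unbound levels 390.1, 352 and 318 CPM. IP replicates 1 and 2 lay near unbound replicate 1, and IP replicate 3 was the lowest of all 6. The log2 fold change of Cpe was -0.02 ± 0.21 (SE; adjusted p = 0.954, edgeR), with a 95% interval from -0.50 to 0.46, and without the third pair it was 0.11. The count ratio of Pam to Cpe was 0.712, 0.554 and 0.656 in the IP libraries and 0.276, 0.259 and 0.281 in the unbound ones. That is a 2.34-fold higher geometric mean in IP, with no overlap and with replicate 3 close to the others in each group.

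Cpe is also made by astrocytes. All 12 listed astrocyte markers fell in IP, and their summed level was 175 to 399 CPM in IP and 1717 to 2054 CPM in unbound libraries, with none at 0 in a whole group. The part of astrocyte RNA in the unbound level of Cpe was not tested.

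Among the granins, Scg2 rose and Chgb did not pass, and both carry the full CRE shown above. Scg2 encodes secretogranin II, the precursor of the peptide secretoneurin. Its levels were 623, 542 and 309 CPM in IP, and 245, 191 and 185 CPM in unbound RNA. Each IP library was above each unbound one, and IP over unbound gave 1.25 ± 0.25 in log2 (SE, adjusted p = 0.00457, edgeR). Chgb encodes chromogranin B. Its IP levels were 358, 342 and 197 CPM and unbound levels 295, 348 and 204 CPM. Both replicate 3 libraries were low and alike, and IP over unbound gave 0.08 ± 0.26 in log2 (SE, adjusted p = 0.816, edgeR; 95% interval from -0.52 to 0.69). Within libraries, Scg2 counts were 1.74, 1.58 and 1.57 times Chgb counts in IP and 0.831, 0.549 and 0.907 times in unbound RNA. Scg2 was the more counted of the pair in all IP libraries and the less counted in all unbound ones, a 2.19-fold difference of geometric means.

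For Chga and Scg3 the outcome depended on IP replicate 3. Chga encodes chromogranin A, the precursor of vasostatin and catestatin. Its IP levels were 98.1, 101 and 46.4 CPM and unbound levels 56.3, 43.4 and 61.0 CPM. IP replicates 1 and 2 were above all unbound libraries, while IP replicate 3 lay among them. IP over unbound gave 0.61 ± 0.29 in log2 (SE, adjusted p = 0.115, edgeR), and it was 0.93 without IP replicate 3 (adjusted p = 0.00385, edgeR) and 0.98 without the third pair (adjusted p = 3.75e-04, edgeR). Scg3 encodes secretogranin III, which binds chromogranin A and cholesterol in the granule membrane. Its levels were 246, 248 and 115 CPM in IP and 173, 164 and 139 CPM in unbound RNA. Here IP replicate 3 was the lowest of the 6. IP over unbound gave 0.36 ± 0.27 in log2 (SE, adjusted p = 0.315, edgeR), and it was 0.66 without IP replicate 3 (adjusted p = 0.0150, edgeR) and 0.54 without the third pair (adjusted p = 0.00281, edgeR). The ratio of Scg3 to Chga counts was nearly constant in IP, at 2.51, 2.44 and 2.49, and ranged from 2.27 to 3.78 in unbound libraries. Without the third pair 7 of the 10 genes were higher and 0 lower, with a median of 1.03, where 26% of all genes tested were higher. The low level of these genes in IP replicate 3 was a ground for leaving it out. The p-values without that library therefore add no support for a rise.

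**Figure D2:**
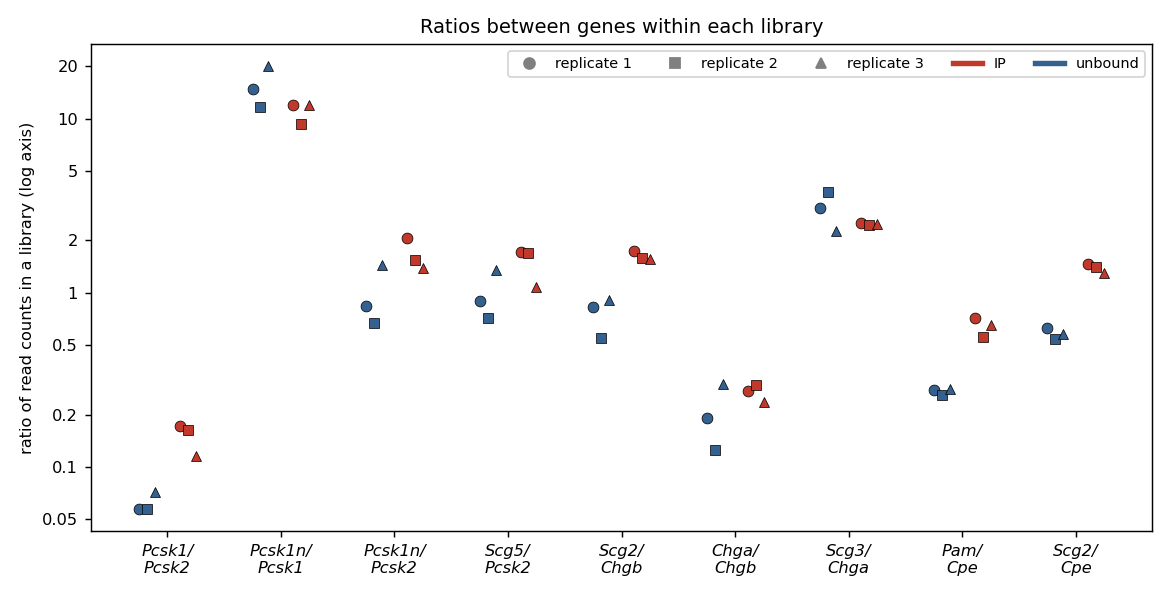
Ratio of read counts between pairs of the 10 genes within each library, on a log axis; colours and shapes as for the levels. IP and unbound libraries do not overlap for Pcsk1/Pcsk2, Scg2/Chgb, Pam/Cpe and Scg2/Cpe, and they overlap for the other 5 pairs.

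The position of IP replicate 3 was shared by all 10 genes. Each was lower there than in both other IP libraries, which held for 35.4% of all genes tested. Their low sum was a ground for singling out this library, so their values there are a description. The difference from the mean of IP replicates 1 and 2 ran from -1.10 (Chga) to -0.28 (Pcsk2) on the log2 scale, with a median of -0.82, against 0.01 for all genes. Scg3 and Chga lay at the lowest 5.49 and 5.42 percent of all genes tested by this difference. The 20 pan-neuronal markers had a median of 0.10 and summed to 24385 CPM in that library, against 24551 and 26458 CPM in the other IP libraries. Of the other processing enzymes 13 of 17 were lowest in IP replicate 3 (median -0.64), of the other granule cargo 6 of 7 (median -0.71), of the copper and ascorbate genes 5 of 8 (median -0.40) and of the neuropeptide precursors 22 of 30 (median -0.72). Fewer were lowest there among the genes for granule biogenesis, 5 of 17 (median 0.04), and for granule transport and release, 5 of 18 (median 0.10). These lists were not uniform. The 5 for granule biogenesis were Resp18, Ptprn, Ptprn2, Atp6ap1 and Atp6ap2, from -0.98 to -0.71. For transport and release the 5 were Cadps2, Syt4, Syt5, Syt7 and Syt10, from -0.85 to -0.14. In unbound replicate 3, 8 of the 10 genes were below both other unbound libraries (32.0% of all genes), with a median of -0.24. Pcsk2 was lower by 0.99, Pcsk1 and Chgb by 0.65 each, and Chga was higher by 0.30.

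**Figure D3:**
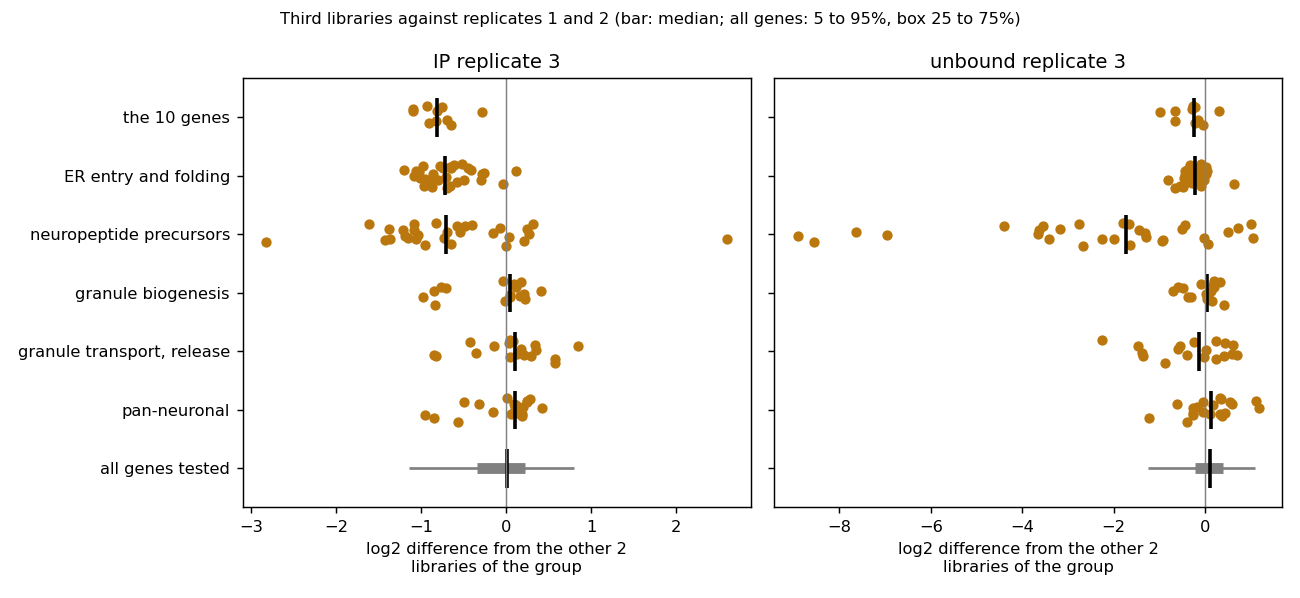
Log2 difference of IP replicate 3 (left) and unbound replicate 3 (right) from the mean of the other 2 libraries of the group; each point is a gene, the bar is the list median, and the grey box and line give 25 to 75% and 5 to 95% of all genes tested. In IP replicate 3 the 10 genes lie at a median of -0.82 and the pan-neuronal markers at 0.10; in unbound replicate 3 the medians are -0.24 and 0.14.

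Pan-neuronal markers themselves were higher in IP: 13 of 20 rose and 1 fell, with a median log2 fold change of 0.60. When libraries were scaled so that these markers centred on 0, the median of all genes went to -0.62 and that of the 10 genes to 0.15. On that scale 1 of the 10, Pcsk1, was higher (0.91, adjusted p = 0.0302, edgeR) and 1, Cpe, was lower (-0.63, adjusted p = 0.0464, edgeR), where 3.64% of all genes tested were higher and 47.0% lower. Scg2 was at 0.63 (adjusted p = 0.0807), Pam at 0.61 (adjusted p = 0.0695), Pcsk1n at 0.49 (adjusted p = 0.116) and Scg5 at 0.30 (adjusted p = 0.358), all in the same edgeR test. None of these 4 passed. Pcsk2 (-0.44), Scg3 (-0.26) and Chgb (-0.54) were below 0 and did not pass either. Sequencing lane follows the replicate numbers, with replicates 1 and 3 of each group on lane 2 and replicate 2 on lane 4. Within lane 2, with 2 libraries a group, Pcsk1 (1.57, adjusted p = 0.0326, edgeR) and Pam (1.22, adjusted p = 0.0449, edgeR) were higher. Pcsk1n (1.08, adjusted p = 0.0548), Scg2 (1.12, adjusted p = 0.0695) and Scg5 (0.78, adjusted p = 0.152) did not pass there in the same edgeR test, while with lane as a covariate the 5 calls held.

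**Figure D4:**
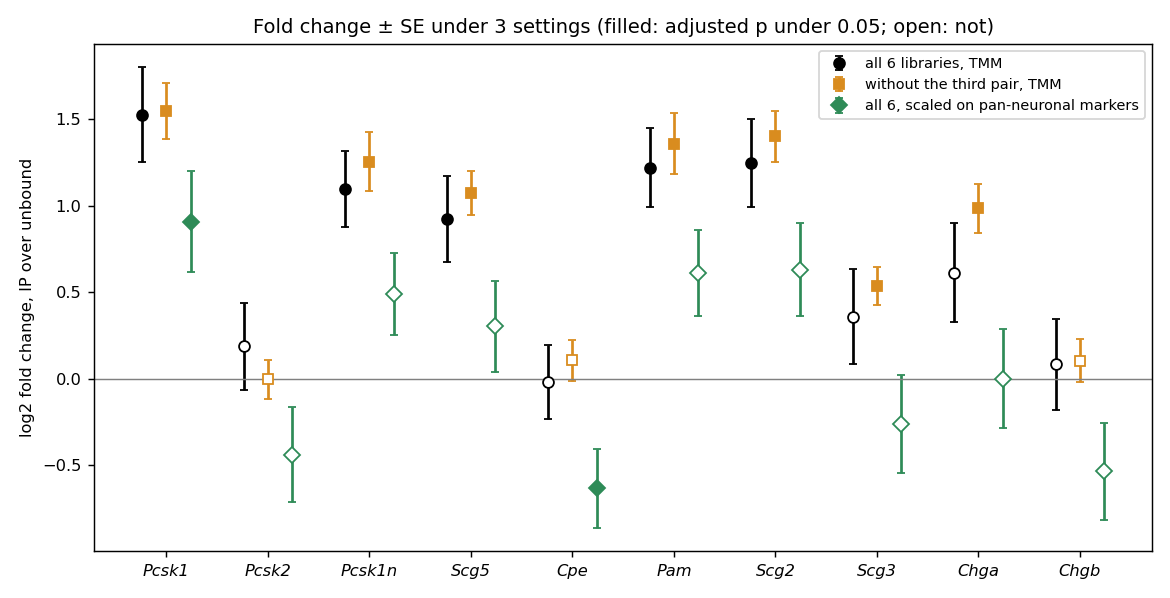
Log2 fold change of IP over unbound ± SE for each gene with all 6 libraries (black), without the third pair (orange) and with scaling on pan-neuronal markers (green); filled symbols passed an adjusted p of 0.05. Pcsk1 is filled under all 3 settings, Scg3 and Chga only without the third pair, and Cpe only, and below 0, with pan-neuronal scaling.

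Between genes, levels were compared per length, as CPM per kilobase of all exons annotated in GENCODE M21 (RPKM), although the isoforms that are present may be shorter than that sum. In IP the order by mean was Scg2 (195 ± 64.6), Scg5 (167 ± 54.9), Cpe (134 ± 37.3), Pcsk1n (131 ± 40.5), Chgb (109 ± 32.3), Scg3 (74.2 ± 27.8), Chga (29.7 ± 11.2), Pcsk2 (21.7 ± 2.41), Pam (18.8 ± 6.14) and Pcsk1 (4.67 ± 1.38 RPKM; SD, n = 3). The neighbours Cpe and Pcsk1n, Chga and Pcsk2, and Pcsk2 and Pam changed places between libraries, while each other neighbour kept its place in 3 of 3. In unbound RNA Cpe came first (135 ± 13.8), followed by Chgb (103 ± 26.6), Scg5 (88.0 ± 12.3), Scg2 (82.3 ± 13.2), Pcsk1n (61.4 ± 5.77), Scg3 (57.9 ± 6.47), Chga (19.4 ± 3.31), Pcsk2 (19.0 ± 6.58), Pam (8.08 ± 0.85) and Pcsk1 (1.62 ± 0.39 RPKM; SD, n = 3). There Chgb and Scg5, Pcsk1n and Scg3, and Chga and Pcsk2 changed places between libraries. The genes Scg2, Scg5, Cpe, Pcsk1n, Chgb and Scg3 stood above the level of 96.3% of genes with a length in both groups. Pcsk1 moved from the lowest 31.5% in unbound to 55.0% in IP.

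Genes were also compared by their whole profile, as the root mean square difference in centred log2 CPM over the 6 libraries. Among the 10, the most alike were Pcsk1n and Pam (0.07), Pam and Scg2 (0.12) and Pcsk1n and Scg2 (0.15), and the least alike were Pcsk1 and Cpe (0.80). Of 7138 other genes with a mean of at least 20 CPM, those nearest to each were named. Ssr4 (0.05) and Spcs1 (0.09) were nearest to Pcsk1n, and Spcs1 (0.08) and Arxes2 (0.10) to Pam. Ssr4 is a subunit of the translocon-associated complex and Spcs1 of signal peptidase, both in the endoplasmic reticulum. Nearest to Scg3 were Canx (0.05), a folding chaperone there, and Tmem19 (0.06), to Cpe Slc35a1 (0.03) and Dnajc3 (0.05), and to Scg5 Atraid (0.04) and Bsg (0.06). Scg2 had Timp2 and Nxph1 (0.08 each), Chga had Syt3 (0.11), and Chgb Tmem131 and Sez6l (0.06 each). For Pcsk2 these were Brinp1 (0.06) and Cdk5r1 (0.08), and for Pcsk1 Ly6h (0.13) and Spint2 (0.15). The median over the 7138 genes ran from 0.43 for Cpe to 0.75 for Pcsk1.

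Other genes of the granule pathway were taken from 5 lists. Of 67 tested, 29 were higher in IP (43.3%) and 6 lower (8.96%), where 21.1% and 23.2% of all genes tested were. Their median log2 fold change was 0.44. Scaling on pan-neuronal markers turned these counts to 6 higher and 17 lower, with a median of -0.17 (3.64% and 47.0% of all genes). With lane 2 alone there were 11 and 2 (7.49% and 14.7% of all genes). Without the third pair 32 were higher and 8 lower (26% and 27.3% of all genes). Without unbound replicate 2, 19 were higher and 4 lower (14.3% and 19.1% of all genes).

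Of 17 proteins that build the granule, 9 rose and 0 fell, with a median of 0.49, where 21.1% of all genes tested rose and 23.2% fell. Pan-neuronal scaling turned this to 1 rise and 3 falls (3.64% and 47.0% of all genes). There were 5 rises without IP replicate 2 (15.5% of all genes), without unbound replicate 2 (14.3%) or with scaling by library size alone (16.8%). Without unbound replicate 1 there were 6 (16.6%), and within lane 2 there were 3 (7.49%). Resp18, an endocrine protein of the granule lumen, had IP levels of 480.5, 428 and 253 CPM and unbound levels of 89.8, 59.9 and 97.5 CPM. It rose by 2.23 ± 0.28 (SE; adjusted p = 5.75e-04, edgeR), a larger estimate than for any of the 10 genes, and by 1.62 with pan-neuronal scaling. Ica1l (0.87), Sgsm1 (0.79) and Vps53 (0.57), a subunit of the tethering complexes GARP and EARP, also rose, but not with pan-neuronal scaling, where Vps53 was at -0.04. For Ptprn, a transmembrane protein of the granule, 298, 291 and 173 CPM in IP stood against 197, 183 and 125 CPM in unbound RNA (0.60, adjusted p = 0.0780, edgeR).

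Genes for granule transport and release had 9 rises and 1 fall among 18, with a median of 0.64, against the same shares of all genes. Pan-neuronal scaling gave 3 rises and 5 falls (3.64% and 47.0% of all genes), and lane 2 alone 4 and 0 (7.49% and 14.7%). There were 3 falls without unbound replicate 3 (25.8% of all genes) or without the third pair (27.3%). Rab27b, a small GTPase that docks granules, had IP levels of 154, 141 and 152 CPM and unbound levels of 62.3, 59.8 and 60.2 CPM, with little spread in either group (1.30 ± 0.12 SE; adjusted p = 1.59e-04, edgeR). Baiap3, a Munc13 relative in granule recycling, rose by 1.54, Doc2a, a calcium sensor, by 1.18, and Rab3a by 0.95. Rab3a missed the threshold with pan-neuronal scaling (0.34, adjusted p = 0.0548, edgeR), while Rab27b (0.68), Baiap3 (0.92) and Doc2a (0.58) passed. Sytl5, a Rab27 effector, fell by 2.003 on the log2 scale, from 28.5 ± 13.5 to 7.09 ± 2.63 CPM (SD, n = 3 each).

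Among 17 other processing enzymes there were 5 rises and 3 falls with a median of 0.05, shares near the 21.1% and 23.2% of all genes tested. There were 2 rises without IP replicate 1 (15.5% of all genes) or unbound replicate 2 (14.3%), and 3 without IP replicate 2 (15.5%). Lane 2 alone had 1 rise and 1 fall (7.49% and 14.7% of all genes). Pan-neuronal scaling gave 1 rise and 6 falls (3.64% and 47.0% of all genes). Ece2, a peptide-cleaving metalloprotease, rose by 1.49 and Qpct, the cyclase that makes the N-terminal pyroglutamate of peptides such as thyrotropin-releasing hormone, by 0.99. Pcsk5 (0.99) and Pcsk4 (0.98) rose as well. Qpct, Pcsk5 and Pcsk4 did not pass with pan-neuronal scaling, and Pcsk5 and Pcsk4 not without IP replicate 1 or unbound replicate 2. Pcsk5 also just missed the threshold without IP replicate 2. Cpm (-2.11), Pcsk6 (-1.02) and Cpd (-0.70) were lower in IP. Cpd, a carboxypeptidase of the trans-Golgi network, lost its call without any single library except IP replicate 2 or unbound replicate 3 (adjusted p from 0.0652 to 0.0882, edgeR). Furin, the convertase of the constitutive pathway, did not pass, with 10.1 ± 3.51 CPM in IP libraries and 10.9 ± 1.90 CPM in unbound ones (SD, n = 3 each, adjusted p = 0.766, edgeR).

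Pam needs copper and ascorbate. Of 8 genes listed for that supply and for partners of Pam, 3 rose and 2 fell, with a median of 0.51. Of all genes tested, 21.1% rose and 23.2% fell. Cyb561, which passes electrons into the granule to restore ascorbate, rose by 1.04, Atox1, a copper chaperone, by 0.94, and Uhmk1, a kinase that phosphorylates the tail of Pam, by 0.76. None of these 3 passed with pan-neuronal scaling, where 3 of the 8 fell, as did 47.0% of all genes tested. Slc31a1, the copper importer of the cell surface, fell by 0.89. Rassf9, which binds the tail of Pam, fell by 2.92 from 1.22 ± 0.30 CPM to 0.16 ± 0.15 CPM (SD, n = 3 each), a low level whose call was lost without IP replicate 3, unbound replicate 1 or unbound replicate 2. Kalrn, which also binds Pam, had IP levels of 211, 879 and 108 CPM and unbound levels of 182, 308 and 96.4 CPM. It was high in both replicate 2 libraries, low in both replicate 3 libraries, and did not pass (adjusted p = 0.379, edgeR).

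Of 7 genes for other granule cargo 3 rose and 0 fell (21.1% and 23.2% of all genes tested). With pan-neuronal scaling 1 rose (3.64% of all genes tested). Bdnf, the neurotrophin, rose by 1.82 from 16.4 ± 2.67 to 57.8 ± 8.52 CPM (SD, n = 3 each). Nucb1 (0.70) and Igfbp5 (0.57) rose too, and each lost its call without IP replicate 1, IP replicate 2 or unbound replicate 2. Vgf, a granin-like precursor, had IP levels of 29.2, 31.7 and 22.1 CPM and unbound levels of 27.6, 26.9 and 14.99 CPM (0.25, adjusted p = 0.433, edgeR). Among the precursors themselves, the substrates of these enzymes, 5 of 30 tested rose (Adcyap1, Nms, Trh, Pnoc and Npb) and 2 fell (Cck and Vip), with a median of 0.18, where 21.1% of all genes tested rose and 23.2% fell. Pan-neuronal scaling gave 3 rises and 6 falls (3.64% and 47.0% of all genes), and Pnoc did not pass there (0.26, adjusted p = 0.346, edgeR). Npb was named after its values were seen. Without the third pair 11 rose and 9 fell (26% and 27.3% of all genes). A fit blocked on replicate number had 8 rises (23.3% of all genes), and there Cck did not pass (-0.95, adjusted p = 0.054, edgeR). Cck and Vip lost their calls when any single library but unbound replicate 3 was left out. Without unbound replicate 3, 9 precursors fell, as did 25.8% of all genes. Trh lost its call without unbound replicate 2 (adjusted p = 0.0639, edgeR). For Npb the call was lost without IP replicate 1, IP replicate 2, unbound replicate 1 or unbound replicate 2. Npb was also counted at a low level, with a mean of 1.26 CPM over the IP libraries against 0.39 over the unbound ones. Nms was low too, with means of 2.50 and 0.25 CPM, but kept its call when any single library was left out.

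**Figure D5:**
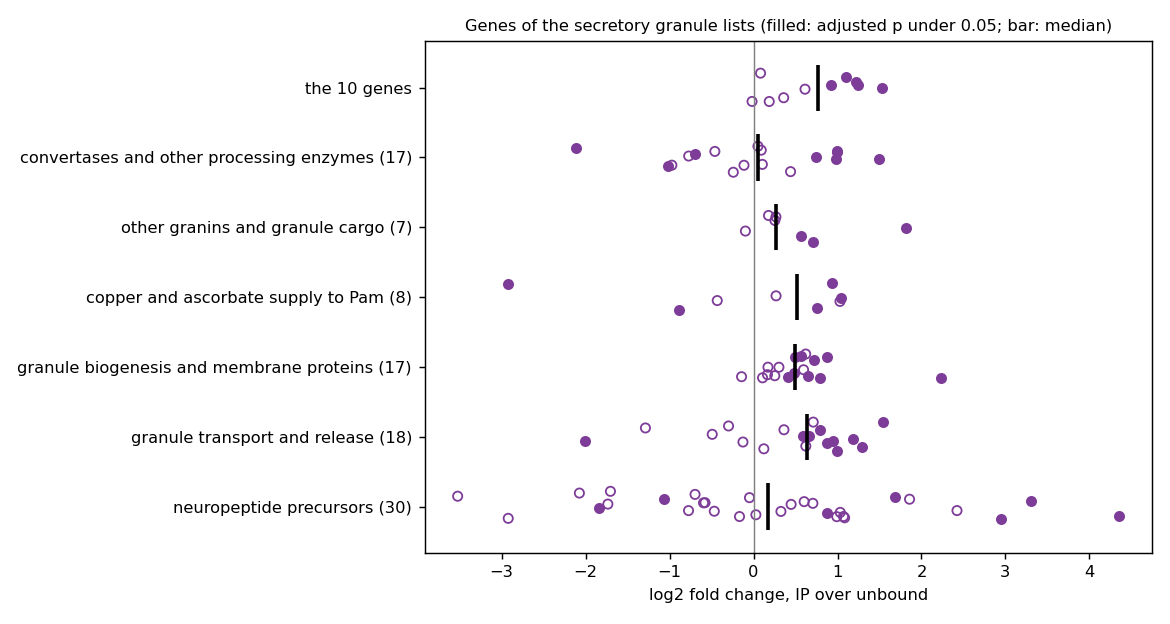
Log2 fold change of IP over unbound for the 10 genes and for each list of the pathway (number tested in brackets); points are genes, filled where the adjusted p was under 0.05, and the bar is the median. Medians run from 0.05 for the other processing enzymes to 0.77 for the 10 genes, and the precursors spread most widely, from -3.52 to 4.36.

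Anterior pituitary cells also hold many granules. The pituitary genes Gh, Cga, Fshb, Pou1f1, Tbx19 and Ghrhr had 0 counts in all IP libraries. Prl, Lhb and Pitx1 reached at most 0.53 CPM in any of the 6 libraries, and Tshb stood at 0.22 to 1.86 CPM. The 12 listed pituitary genes together summed to 23.3 to 58.5 CPM in IP and 2.56 to 7.10 CPM in unbound libraries. In IP most of this sum came from members not reported here, and 1 of the 2 genes tested was higher in IP.

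On the build GRCm38, GENCODE places Pcsk1 on chromosome 13 (75089826 to 75134861, plus strand), Pcsk2 on chromosome 2 (143546156 to 143816285, plus) and Pcsk1n on chromosome X (7919822 to 7924410, plus). Scg5 lies on chromosome 2 (113776362 to 113829121, minus), Cpe on chromosome 8 (64592542 to 64693054, minus) and Pam on chromosome 1 (97795114 to 98095646, minus). Scg2 lies on chromosome 1 (79434669 to 79440120, minus), Scg3 on chromosome 9 (75643189 to 75684056, minus), Chga on chromosome 12 (102554969 to 102565028, plus) and Chgb on chromosome 2 (132781278 to 132795079, plus). All are protein-coding. Pcsk1n shares 135 exonic bases with Eras on the opposite strand and Pam 188 with a transcript on its own strand, so reads there may be ambiguous. Ambiguous reads made up 1.58 to 1.64% of all reads listed in IP and 7.08 to 9.02% in unbound libraries.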

How the data were processed

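RNA-seq of 3 IP and 3 unbound libraries was analysed, grouped by title and sample type. The authors deposited raw read counts per gene symbol. STAR 2.0.0e, HTSeq and mm10 are named by the submitters' processing notes, while annotation, strand setting and overlap rule are not stated in them. The 6 summary rows without a gene were left out, and 45.0 to 47.7% of the reads listed fell in genes.

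The test was that of edgeR 4.0.16, run in R 4.3.3 (TMM, filterByExpr at count 10 and total 15, robust quasi-likelihood fit on group, Benjamini-Hochberg over all genes tested, threshold 0.05), checked on simulated data. An SE is the fitted log2 difference over the root of its F value. Replicates differed beyond counting noise (chi-square per degree of freedom 23.0 to 136). Members and lists were chosen with earlier results of these data known. Named were all 10 genes, up to 4 passing genes per list and direction with the smallest adjusted p, any whose call hung on 1 library, and the nearest 2 profiles. Some members of the pituitary list and a nearest profile are not reported here. Furin, Ptprn, Vgf, Kalrn and Npb were named after their values were seen. The same holds for Ptprn2, Atp6ap1, Atp6ap2, Cadps2, Syt4, Syt5, Syt7 and Syt10.

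Same-numbered IP and unbound libraries deviated together over genes (correlations 0.14, 0.16 and 0.21), so the numbers were taken as pairs, by this check (all over 0.1) and not by a label. Replicate 2 ran on lane 4 and the others on lane 2, so the check cannot tell pairing from lane for replicate 2. The numbers that open the titles place IP replicates 1 and 2 beside unbound replicate 1, and IP replicate 3 beside unbound replicates 2 and 3. The pairing is therefore uncertain. Alternatives were other scalings and filters, DESeq2 1.42.0, limma-voom (limma 3.58.1), a replicate block, lane, and libraries left out.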

Additional observations from a re-analysis of the deposited data

How the results depend on the processing

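Of the 10 genes, Pcsk1 kept its call in all 18 alternatives (0.91 to 1.77), Pam in 17, Pcsk1n and Scg2 in 16 and Scg5 in 13. Leaving out 1 library gave 4 to 7 higher genes of the 10 and 0 lower, 2489 to 4139 higher and 3263 to 4448 lower over all genes, and 19 to 30 higher among the other pathway genes. Pan-neuronal scaling left 1 higher and 1 lower of the 10, 618 higher and 7978 lower over all genes, and 6 and 17 among the pathway genes. With lane 2 alone, 2 libraries a group, 2 of the 10 were higher (Pcsk1 and Pam), 1297 and 2538 of all genes were called, and 11 and 2 of the pathway genes. Lane 4 has 1 library per group and gives no value of its own.

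Signs turned for genes near 0 that did not pass: Pcsk2 (pan-neuronal -0.44, without the third pair -0.0026, without unbound replicate 3 -0.081, range over single libraries left out -0.08 to 0.36), Cpe (no filter 0.021, without the third pair 0.11, without IP replicate 3 0.22, without unbound replicate 1 0.09, range -0.17 to 0.22), Scg3 (pan-neuronal -0.26) and Chgb (library size alone -0.018, pan-neuronal -0.54, without IP replicate 1 -0.05, without IP replicate 2 -0.01, without unbound replicate 3 -0.11, range -0.11 to 0.33). With pan-neuronal scaling Igfbp5 was at -0.046 and Vps53 at -0.044. The cause was not tested. The replicate block gave 5 higher and 0 lower of the 10 with a median of 0.71, changed no call among them, and gave 3952 higher and 4017 lower over all genes. With DESeq2 and limma-voom the same 5 genes passed.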

Other observations

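A list of 32 genes for entry into the endoplasmic reticulum and folding there was added after the nearest profiles had been seen, so it gets no test. In IP replicate 3, 30 of the 32 were below both other IP libraries, with a median difference of -0.72 on the log2 scale, and 35.4% of all genes tested were. In unbound replicate 3, 21 of 32 were below both others, with a median of -0.23. The neuropeptide precursors had medians of -0.72 and -1.73 in these libraries. Astrocyte markers had a median of -1.05 in IP replicate 3 and 0.58 in unbound replicate 3.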
